A study of Rattus norvegicus with 12 samples.

Results

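Stimulated injured spinal cord was set against uninjured cord, to ask what still differed from the intact tissue at 5 days in rats that had received epidural stimulation. The comparison took 8 of the 12 libraries of the series by their group labels: 4 from animals without injury and 4 from animals with a hemisection at T9, the ninth thoracic segment, followed by electrical stimulation over L2 to S1. All libraries came from T9 cord of Sprague Dawley rats, so the tissue read was the lesioned segment and not the segments under the electrodes. The labels state neither age, sex nor whether uninjured animals had a sham operation, and hemisection, surgery, implant and current therefore cannot be told apart in this contrast. Nor do they say whether the 4 libraries of a group are separate animals, so the spread behind each p-value may be technical. The remaining 4 libraries, from hemisected animals at 5 days without stimulation, are called injured and serve here as a further set of values.

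A hemisection severs the tracts on one side of the cord. In the days that follow, microglia and blood-derived phagocytes gather at the lesion and clear debris, astrocytes become reactive at its border, and axons and myelin cut off from their cell bodies degenerate. Epidural stimulation passes current through electrodes lying on the dura and is studied as a means of regaining movement below an injury. These statements are background: the counts name genes by Ensembl identifiers only, 0 of which could be paired with a symbol from the tables used here, so no cell type, pathway or tissue marker was read from them.

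CEL-Seq2 libraries, which sample the 3' ends of transcripts, held 254762 to 450114 counts in uninjured cord and 204836 to 306186 in stimulated cord, and the totals of the 2 groups overlapped (p = 0.229 by an exact two-sided permutation test, adjusted p = 0.457 over 4 library measures). Of 32883 genes in the table, 5285 passed the filter on low counts and held 93.0% to 93.9% of the counts of these 8 libraries. Correlations of log2 CPM (counts scaled to library size) between stimulated and uninjured libraries were 0.55 to 0.70 over these genes, against 0.83 to 0.90 among stimulated and 0.80 to 0.94 among uninjured libraries. Genes are not independent replicates, and these correlations describe the libraries only.

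More than 1 in 3 tested genes differed between stimulated and uninjured cord. In stimulated cord 968 genes rose, 18.3% of those tested, and 858 fell, 16.2%, which together made 34.6% (edgeR, quasi-likelihood test with p adjusted by Benjamini-Hochberg, threshold 0.05). At a fitted change of 2-fold or more, 886 genes rose and 764 fell. Among called genes, 415 rose at least 4-fold, 7.85% of genes tested, and 241 fell by as much, 4.56%. At 8-fold or more there were 185 rises and 45 falls, and at 16-fold or more 69 rises and 4 falls. The fitted folds of genes with few counts in one group depend on the prior count, so the highest classes are the least exact. All these counts include genes that passed the filter through 1 group alone, described below, so no direction is read from them. By the same test, injured cord without stimulation differed from uninjured cord in 1692 of 5285 genes, 889 risen and 803 fallen. Of these, 372 rose and 121 fell at least 4-fold. The 2 contrasts share the uninjured libraries, and their counts are no test of the difference between stimulated and injured cord.

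The median rise was 1.80 on the log2 scale, or 3.49-fold, with the middle 50% of risen genes between 1.26 and 2.74. The median fall was -1.54, or 2.90-fold, with the middle 50% between -2.08 and -1.18. The median standard error was 0.41 for risen and 0.38 for fallen genes. The smallest change that passed was 0.67 among rises and -0.70 among falls, and 82 rises and 94 falls were under 2-fold. In bulk tissue, fewer cells of a type and less RNA per cell cannot be told apart.

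**Figure D1:**
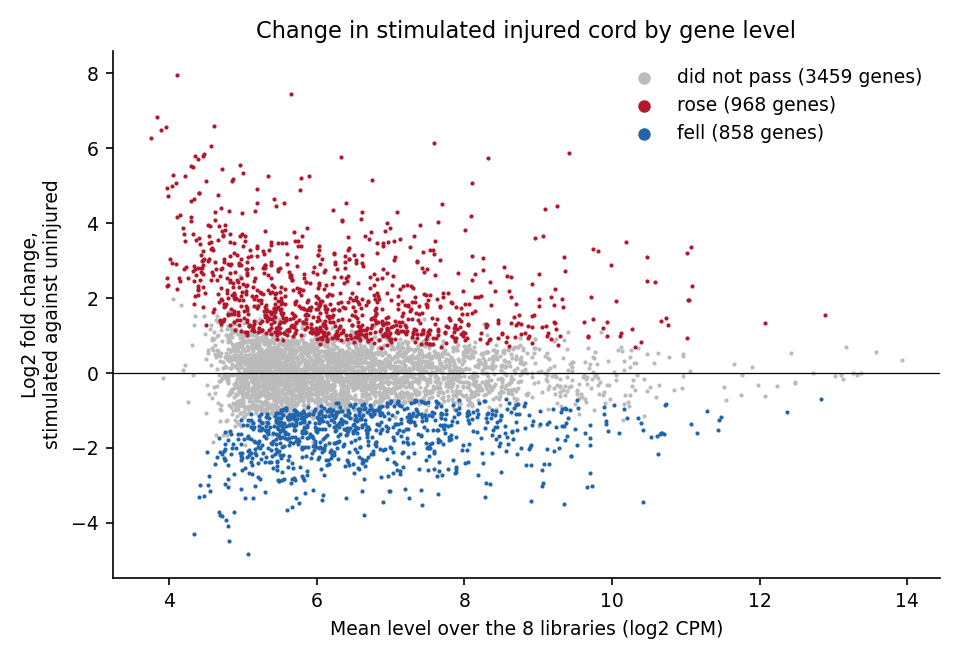
Log2 fold change of each of the 5285 tested genes in stimulated against uninjured cord (y axis) by its mean log2 CPM over the 8 libraries (x axis), coloured by whether it rose, fell or did not pass the test. The 968 risen genes reach 7.97 and the 858 fallen genes -4.83, and both occur over the whole range of levels.

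The filter admits a gene that is well counted in 1 group alone, which favours a difference from a group where the gene is low. Of the tested genes, 445 had no uninjured library at the filter level of 30.4 CPM, and 339 of these rose. In turn, 263 had no stimulated library at that level, and 169 of them fell. These 2 sets share some genes, which were admitted through injured libraries. Among the 4583 genes with at least 1 library of each group at the filter level, 629 rose and 689 fell. The counts of the first 2 sets are shaped by how the filter admits genes, and no direction is read from them. The order of rises and falls over all tested genes was not stable. It was the reverse within the 4583 genes, and without uninjured replicate 3 there were 833 rises and 839 falls.

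Separation between the groups was nearly complete for most called genes. All 4 stimulated libraries lay above all 4 uninjured ones in 845 tested genes, 16.0%, and below them in 796, 15.1%. Among called genes this held for 773 of the 968 that rose and 712 of the 858 that fell. Each stimulated library on its own exceeded every uninjured library in 92.4% to 95.4% of the risen genes, and lay under every uninjured library in 92.5% to 96.7% of the fallen genes. The genes were called on these libraries, so the shares describe how evenly the 4 libraries carried the change and are no test of it.

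Changes were called at every abundance, and more often in well-counted genes. Tested genes were divided into 5 classes of 1057 by their mean CPM over the 12 libraries. In class 1, with means of 196 to 13729 CPM, 251 genes rose and 213 fell, which was 43.9% of the class. In class 3, at 58.0 to 94.4 CPM, 172 rose and 176 fell, or 32.9%. In class 5, at 18.6 to 38.6 CPM, 176 rose and 131 fell, or 29.0%. The median standard error went from 0.32 in class 1 to 0.48 in class 5.

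For some genes the data bounded the change instead. The 95% interval of the log2 fold change (limma-voom) is not adjusted for the number of genes. It lay between -1 and 1 for 950 genes, 18.0% of those tested, which held them within 2-fold of uninjured cord. This was so for 261 genes in class 1 and 276 in class 2, but for 55 in class 5. The 3459 genes that did not pass the test therefore include many whose change was left unresolved, and they are not shown to be at the uninjured level.

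**Figure D2:**
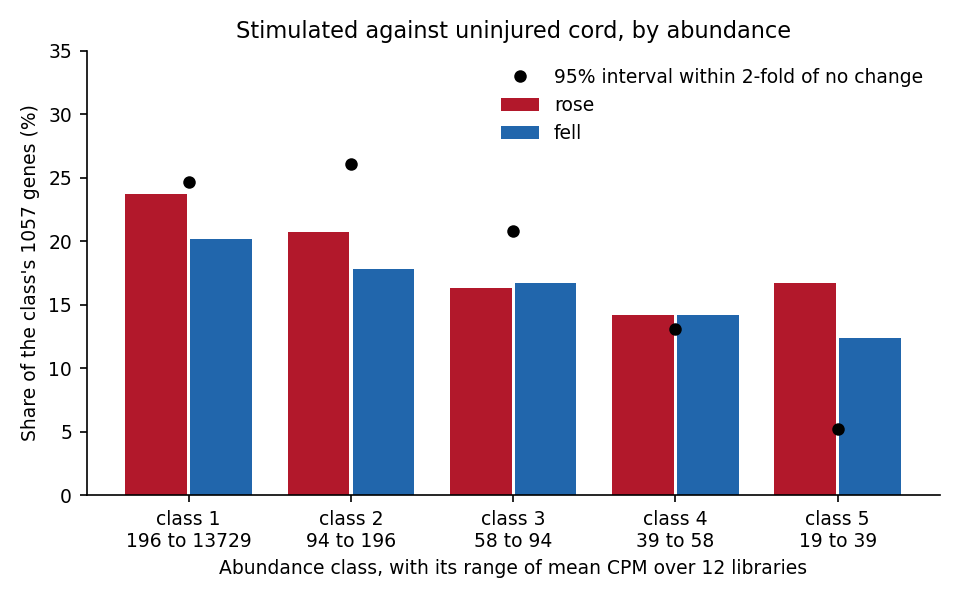
Share of genes in each of 5 abundance classes that rose or fell in stimulated against uninjured cord (bars), and share whose 95% interval lay within 2-fold of no change (points). Class 1 has 23.7% risen and 20.2% fallen genes, and the share with a narrow interval goes from 24.7% in class 1 to 5.20% in class 5.

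The ranks of the most abundant transcripts also differed. Of the 20 genes with the highest mean CPM in uninjured cord, 14 were also among the top 20 in stimulated cord, and the 6 that took the other places had all risen. Of the top 100 genes in uninjured cord, 46 remained among the top 100 in stimulated cord. Of the 54 that entered, 42 had risen, and of the 54 that left, 38 had fallen. Genes that enter either top set are picked for a higher level in stimulated cord, and genes that leave for a lower one. The directions therefore follow from the choice and are no result of their own. Over all tested genes, 18.3% rose and 16.2% fell. The uninjured top 100 held 28.3% to 33.0% of counts in uninjured libraries and 22.5% to 25.2% in stimulated ones. For the uninjured top 20 the shares overlapped, at 11.5% to 17.6% and 12.8% to 15.2%. Both sets were chosen by their level in uninjured cord, which favours a lower share elsewhere.

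Abundant genes are also those closest to an upper limit of the deposited counts, which stop just under 4096 in each library, the number of distinct identifiers of 6 bases. A limit of this kind compresses differences between high levels. Of the 62 tested genes with over 1024 counts in any of the 8 libraries, 13 rose and 21 fell, or 54.8% beside 34.3% of the other tested genes, and their median log2 fold change was -0.32. With counts corrected for identifiers drawn more than once, 13 rose and 25 fell, and the median was -0.52. Whether identifiers were in fact collapsed is not given in the sources used here.

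Some genes passed from no count to a count in every library. In the whole table, 55 genes had 0 counts in all uninjured libraries and at least 1 in each stimulated library, with 4 to 32 counts in stimulated cord (median 9). The highest of them was at least 13.6-fold higher, taking 3 counts over the uninjured group as the floor. The reverse held for 42 genes, with 4 to 40 counts in uninjured cord (median 10.5), and the highest was at least 10.4-fold lower in stimulated cord. Both numbers depend on depth, and the mean total was 332300 counts in uninjured and 260250 in stimulated libraries. With all libraries thinned to equal totals, 81 genes had the first pattern and 29 the reverse. Only 3 of the 55 and 0 of the 42 were counted well enough to be tested. The 3 were called, in a direction fixed by how they were chosen. Of the 55 genes, 53 had a count in injured cord too and 30 were in all 4 injured libraries. All 42 genes of the reverse pattern had a count in injured cord, and 8 of them were in all 4 injured libraries. The injured libraries held 399386 to 553986 counts, more than any stimulated library, and the part of depth in this was not tested.

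Of the 381 risen and 478 fallen genes with a mean count of 20 or more and no overlap between the groups, the 2 with the largest fitted change in each direction are given by identifier. ENSRNOG00000054251 had the largest rise. It had 0, 1, 1 and 0 counts in uninjured replicates 1 to 4 and 66, 66, 113 and 77 in the stimulated ones. Its level in stimulated cord was 374, 233, 434 and 357 CPM, far above the 0 to 3.28 CPM of uninjured libraries. Counts per total were 206 times as high in stimulated cord, with a 95% interval of 56.4 to 1705 for counting error only (edgeR log2 fold change 7.45, SE 0.65, adjusted p = 8.81e-07). In injured cord it stood at 112 to 427 CPM, a range that overlaps that of stimulated cord. The log2 fold change of stimulated against injured cord was 0.68 (SE 0.37, edgeR unadjusted p = 0.0842, adjusted p = 0.576). The limma-voom 95% interval, which is not adjusted for the number of genes, was 0.10 to 1.57. That interval excludes 0, but the edgeR test did not pass even before adjustment. All named genes were chosen for their change in stimulated cord, which favours a larger difference from injured cord too.

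ENSRNOG00000019890 was the second. It was at 30.4, 24.0, 16.4 and 11.4 CPM in uninjured replicates 1 to 4 and at 1660, 1228, 1822 and 1174 CPM in the stimulated ones. Even the lowest stimulated library was far beyond the highest uninjured one (edgeR log2 fold change 6.14, SE 0.43, adjusted p = 1.8e-07). Among tested genes this was the smallest adjusted p of the comparison. Injured libraries held 655, 1102, 1441 and 642 CPM, 3 of them below every stimulated library. The log2 fold change of stimulated against injured cord was 0.62 (SE 0.32, edgeR unadjusted p = 0.069, adjusted p = 0.563), which did not pass the test. The limma-voom 95% interval of that gene alone was 0.062 to 1.30, which excludes 0 where the unadjusted edgeR test does not.

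ENSRNOG00000019959 had the largest fall of a gene named here. Uninjured replicates 1 to 4 had 29, 83, 38 and 17 counts, or 126, 199, 125 and 64.5 CPM. Stimulated replicates 1 and 4 had 0 counts and replicates 2 and 3 had 2 each, so the whole group held 4 counts. Counts per total were 32.7 times as high in uninjured as in stimulated cord, with a counting interval of 12.5 to 121 (edgeR log2 fold change -4.83, SE 0.82, adjusted p = 0.000257). Injured replicate 1 was at 66.8 CPM, inside the uninjured range, while injured replicates 2 to 4 were at 5.17 to 15.2 CPM. Stimulated against injured cord gave a log2 fold change of -2.45 with SE 0.95 (edgeR unadjusted p = 0.0187, adjusted p = 0.486). The limma-voom 95% interval was -3.74 to 0.0023.

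ENSRNOG00000001915 was at 577, 254, 194 and 475 CPM in uninjured replicates 1 to 4 and at 17.0, 35.4, 7.69 and 46.4 CPM in the stimulated ones. The groups did not overlap, as the naming rule required, although the uninjured libraries themselves ranged widely (edgeR log2 fold change -3.78, SE 0.61, adjusted p = 0.00018). Injured libraries held 5.27 to 88.5 CPM, a range that covers all 4 stimulated libraries. The log2 fold change of stimulated against injured cord was -0.56 (SE 0.65, edgeR unadjusted p = 0.401, adjusted p = 0.791), with a limma-voom 95% interval of -2.02 to 1.42.

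**Figure D3:**
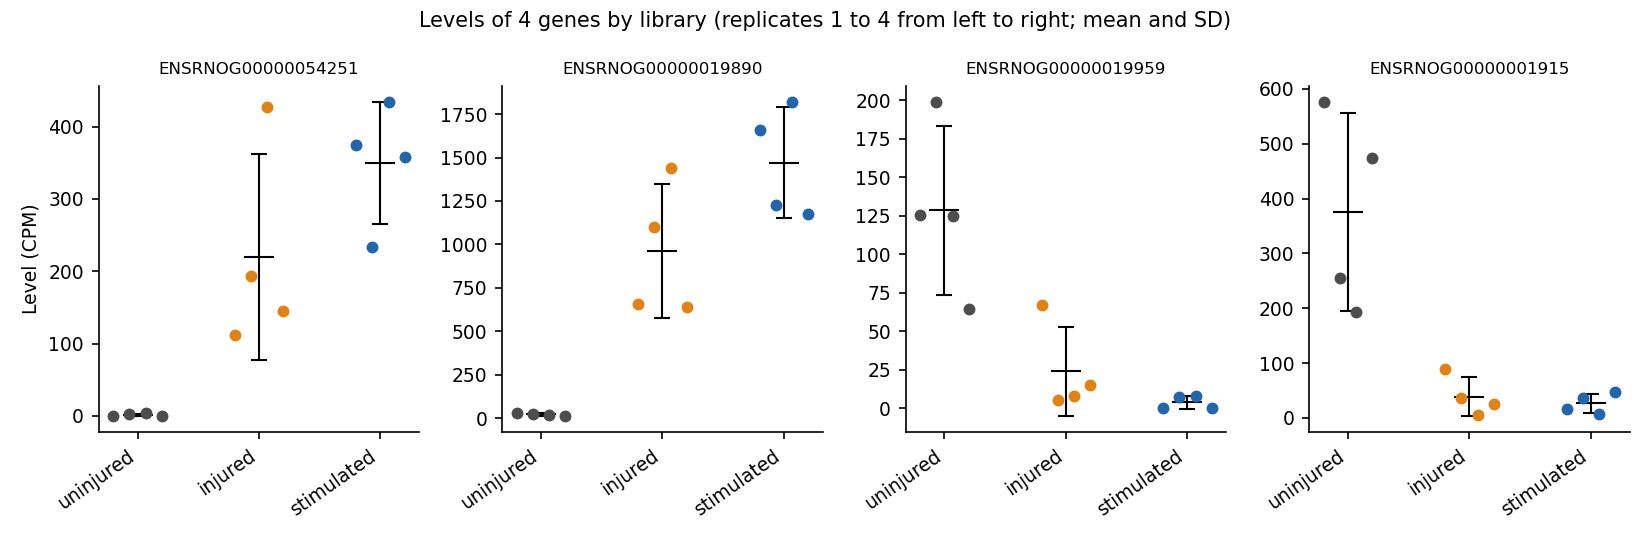
CPM of the 4 genes in each library (points, replicates 1 to 4 from left to right) with the mean and SD of each group of 4 (bars); each panel has its own axis. Stimulated libraries lie apart from uninjured libraries in all 4 panels, which the rule for naming the genes required. Injured replicate 1 is at 66.8 CPM for ENSRNOG00000019959 where the other injured libraries are at 5.17 to 15.2.

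The called genes took up a large part of each library. The 968 risen genes held 8.16%, 7.78%, 7.60% and 7.73% of counts in uninjured replicates 1 to 4 and 29.5%, 28.8%, 28.7% and 26.6% in the stimulated ones. The 858 fallen genes held 26.7% to 30.5% of counts in uninjured and 9.25% to 9.77% in stimulated libraries. Since the genes were called on these libraries, this gives the size of the shift and no test of it. Injured libraries are not part of this contrast, but they took part in the low-count filter, the scaling and the estimate of spread. In them the risen genes held 20.2% to 28.3% and the fallen genes 9.72% to 17.7%. Injured replicate 1 had both the lowest share of risen and the highest share of fallen genes of its group, and stood nearest to uninjured cord.

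**Figure D4:**
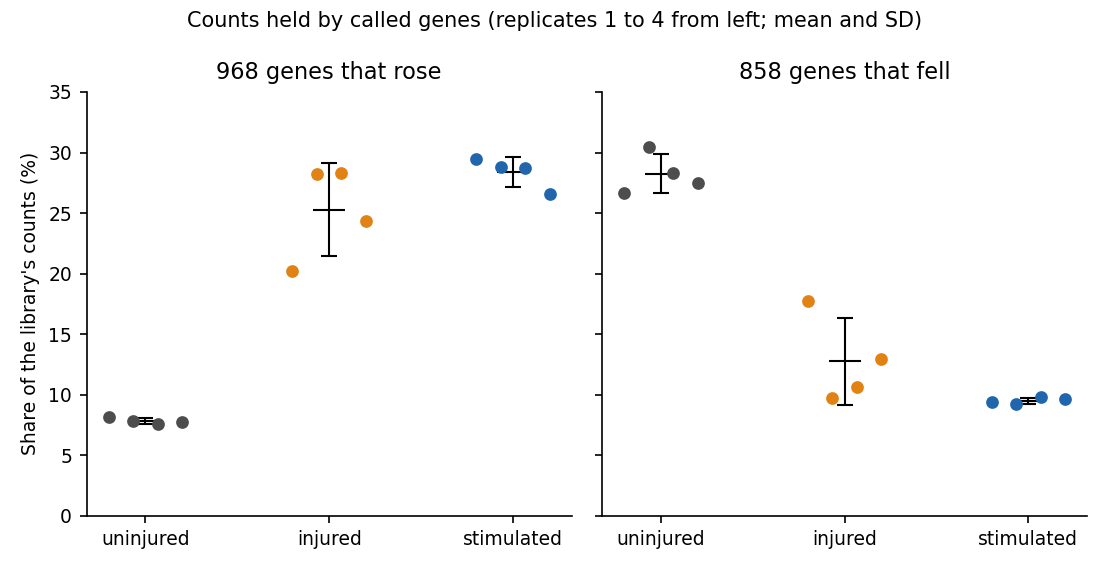
Share of each library's counts (y axis, percent) in the genes that rose and the genes that fell in stimulated against uninjured cord, by group, with mean and SD (n = 4). Stimulated libraries lie between 26.6% and 29.5% in risen genes and within 9.25% to 9.77% in fallen genes, and injured libraries are spread more widely, from 20.2% to 28.3% and from 9.72% to 17.7%.

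To see whether what differed from uninjured cord under stimulation also differed from injury alone, the same genes were read in the contrast of stimulated with injured cord. No tested gene passed it, 0% of 5285 (edgeR, smallest adjusted p = 0.486), while 491, 9.29%, had an unadjusted p under 0.05, and DESeq2 called 1. Changes from uninjured cord had a median log2 value of 1.80 in stimulated and 1.60 in injured cord for the risen genes, and of -1.54 and -1.26 for the fallen genes. Both sets of values share the uninjured libraries, and the genes were chosen for their change in stimulated cord, which favours the larger value there.

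Within the risen genes, 133 of 968, or 13.7%, had an unadjusted p under 0.05 between stimulated and injured cord, 119 of them higher in stimulated cord. Within the fallen genes, 119 of 858, or 13.9%, did, 118 of them lower in stimulated cord. These counts moved by over 1.5 times when 1 library was left out. Of the risen genes, 75 were left without injured replicate 1 (7.75%, beside 5.54% of all tested genes), 75 without stimulated replicate 1 (beside 338 of all tested genes) and 80 without injured replicate 4 (8.26% beside 6.57%). Of the fallen genes, 43 were left without injured replicate 1 (5.01% beside 5.54%), and there were 189 without injured replicate 2 (beside 654 of all tested genes, 12.4%). The 241 genes that fell at least 4-fold had a median log2 fold change of -0.62 against injured cord, and 56 of them, 23.2%, had an unadjusted p under 0.05, all lower in stimulated cord. Choosing the genes on the stimulated libraries moves these counts the same way, and their median rests in part on 1 library. Without injured replicate 1 the median of the 241 genes was -0.27, and 19 of them, 7.88%, had an unadjusted p under 0.05, beside 5.54% of all tested genes. Without injured replicate 2, 87 of them, 36.1%, did, beside 12.4% of all tested genes. Leaving out any injured or stimulated library other than injured replicate 1 gave medians of -0.81 to -0.59.

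**Figure D5:**
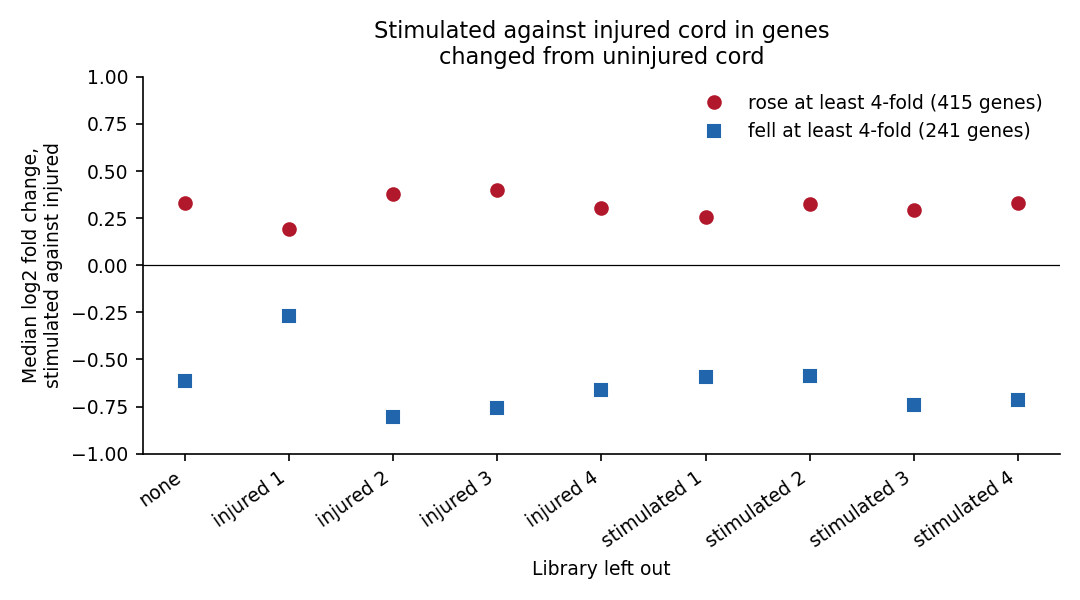
Median log2 fold change of stimulated against injured cord in the 415 genes that rose and the 241 that fell at least 4-fold against uninjured cord (y axis), with all libraries and without each injured or stimulated library (x axis). The median of the fallen genes is -0.62 with all libraries, -0.27 without injured replicate 1 and between -0.81 and -0.59 without any other.

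The difference between stimulated and injured cord could be bounded for part of the genes. Of the 1826 genes changed from uninjured cord, 636, or 34.8%, had a limma-voom 95% interval for stimulated against injured cord between -1 and 1, beside 37.1% of all tested genes. For these genes a change of 2-fold or more between stimulated and injured cord lay outside the interval. The intervals are not adjusted for the number of genes, and the group labels do not say whether injured animals carried an implant. For the other called genes the interval reached 2-fold or beyond. Among the genes that fell at least 4-fold, the interval was within 2-fold in 9 of 241.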

How the data were processed

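The authors deposited 1 table of raw counts per gene and library. The build Rnor_6.0 and the tools HTSeq 0.6.0 and HISAT2 2.0.4 are listed in the submitters' processing notes; the sources used here do not give the role of each, the annotation, the strand setting or the treatment of molecular identifiers. Overlapping genes and genes with shared sequence may have been counted together. All 12 columns were mapped to samples by description.

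The analysis used edgeR 4.0.16 under R 4.3.3. Low genes were removed by filterByExpr, which was given the groups, and TMM factors were computed on the rest. A single robust quasi-likelihood model with 1 term, the group, was fitted to the 12 libraries and left 9 residual degrees of freedom. P-values were adjusted by Benjamini-Hochberg over 5285 genes. CPM uses the scaled totals, and log2 CPM adds a prior count of 2. Each standard error was taken as the log2 fold change over the root of F. Intervals are from limma 3.58.1 with voom, and counting intervals are Clopper-Pearson at 95%. Single library measures were compared by exact permutation over 70 arrangements. The fit was also run on simulated counts in which fewer genes changed than were called here. That run checks the code and not the error rate in these data.

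The comparison, lists and tests were chosen with earlier results of these data known. Gene lists, cell type markers and naming by symbol were planned but not run, since no identifier could be paired with a symbol. Named genes are the 2 largest rises and falls past the threshold with a mean count of 20 or more over the 8 libraries and no overlap of CPM. The labels do not say whether libraries are separate animals, and the spread behind each p-value may be technical. Libraries of a group differed beyond counting error (3.26 to 12.2 chi-square units per degree of freedom). Alternatives were other scalings and filters, DESeq2 1.42.0, limma-voom with sample weights, the 8 libraries alone, a replicate block, corrections for the count limit, thinning to 204836 counts, and leaving out each library. The newer quasi-likelihood method of edgeR and a covariate for within-group variation were added after seeing the data.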

Additional observations from a re-analysis of the deposited data

How the results depend on the processing

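The number of genes changed in stimulated against uninjured cord was 1234 to 2308 over 13 alternatives to the reported fit, and each was within 1.5 times of 1826. Other counts moved further with the filter on low counts, which sets how many genes are tested. With no filter (18333 genes), 660 genes rose and 455 fell at least 4-fold, 1753 had a 95% interval within 2-fold, and 28 genes were called between stimulated and injured cord. In that fit the edgeR adjusted p of ENSRNOG00000019890 against uninjured cord was 4.37e-40, beside 1.8e-07 in the reported fit, at log2 fold changes of 6.08 and 6.14. Why the adjusted p differed so much was not tested. This limits every call of that fit, both the 28 and those it adds to the 13 alternatives and to the 83 values below. With a mean count of 20 or more (3113 genes), 645 genes rose, and 229 rose and 144 fell at least 4-fold. Between stimulated and injured cord DESeq2 called 1 gene and the covariate for within-group variation 2. Leaving out each stimulated or uninjured library gave 1523 to 1881 called genes, with 799 to 983 rises and 724 to 898 falls. Without uninjured replicate 3 falls outnumbered rises (839 against 833), and scaling by total counts gave 922 rises and 895 falls. Leaving out 1 library gave 424 to 480 rises and 217 to 304 falls of at least 4-fold, 715 to 853 genes held within 2-fold, and 0 to 1 genes called between stimulated and injured cord, the 1 being without stimulated replicate 3. Genes at 0 in uninjured and in every stimulated library numbered 72 to 99 with 1 library less, and the reverse 56 to 101, since fewer libraries had to meet the condition. All 83 values of the 4 named genes kept direction and call. ENSRNOG00000019959 was too low for the filter at a mean count of 20. Same-numbered stimulated and uninjured libraries deviated together for replicates 3 and 4 but not for 1 and 2 (correlations of -0.21 and -0.31 for replicates 1 and 2, 0.37 and 0.42 for 3 and 4), so the numbers were not taken as pairs, and with the replicate block 1911 genes were called. Alternatives for gene lists were not run. The share of genes with an interval within 2-fold was lowest in the least abundant class.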

Other observations

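Libraries also differed within groups along a shared direction. The first component of the deviations from group means held 39.5% of that variance over the 12 libraries, and 2 libraries of each group lay on each side of it. Uninjured replicates 1 and 4 scored 21.9 and 33.9, and replicates 2 and 3 scored -24.9 and -30.9. Stimulated replicates 2 and 4 scored 16.8 and 25.8, and replicates 1 and 3 scored -19.8 and -22.8. The labels give no batch, litter or sex that these scores could be set against. With the scores as a covariate 2308 genes were called between stimulated and uninjured cord, 1227 higher and 1081 lower. The scores were taken from the same counts, and the fit does not allow for that.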
